A study of Mus musculus with 104 samples.

Results

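Liver and muscle were compared at single CpGs in mice at postnatal day 20 (P20). A CpG, a cytosine followed by a guanine, was included when the liver table and the muscle table of the time-course experiment both listed its position and when at least 3 libraries of each tissue had a value. This left 28021 CpGs of the 33997 listed in both tables, which themselves held 70259 CpGs for liver and 46085 for muscle. The study followed DNA methylation in mouse tissues from shortly before birth to adulthood, mainly by reduced representation bisulfite sequencing (RRBS), which reads the DNA fragments released by a restriction enzyme that cuts at CCGG. Of its 104 samples, 5 P20 liver and 4 P20 muscle libraries enter here. All 9 were made from DNA of bulk tissue of untreated mice aged P20, C57BL/6 in the labels and C57BL/6J in the study's methods, which were supplied by Jackson Laboratories as tissue. The labels call the second tissue muscle without naming which one, and they give no sex for these libraries. They number the libraries without tying them to animals, so the p-values measure the spread between these libraries.

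DNA methylation at CpGs is copied when cells divide and differs between tissues most at distal regulatory elements, where low methylation commonly goes with binding of the transcription factors of that lineage. In hepatocytes these include the HNF and FOXA factors and C/EBP, and in muscle fibers MyoD, myogenin, MEF2 and TEAD. Promoters within dense clusters of CpGs are unmethylated in most tissues whether or not the gene is used. A bulk tissue value is the share of methylated DNA over all its cells, so a difference in cell makeup and a difference within one cell type cannot be told apart.

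The stretches below held the runs of called CpGs with the largest differences at P20 among the autosomal runs at protein-coding genes with at least 8 values at every called CpG, which were 76 runs higher in liver and 10 higher in muscle of 316 runs in all. They are 3 with higher methylation in liver and 3 with higher methylation in muscle. They are read from the plus strand of mm9, the build of the tables, in lower case, with the CpGs that passed the test in capitals.
Megf6, intron, chr4:153621952-153622046, higher in liver: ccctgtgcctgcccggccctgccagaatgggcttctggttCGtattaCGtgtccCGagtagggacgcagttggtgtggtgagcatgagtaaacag
Usp46, intron, chr5:74447816-74447941, higher in liver: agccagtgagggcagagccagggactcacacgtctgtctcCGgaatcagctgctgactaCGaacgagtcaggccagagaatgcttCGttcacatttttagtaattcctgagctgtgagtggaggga
Akap6, intron, chr12:53955774-53955884, higher in liver: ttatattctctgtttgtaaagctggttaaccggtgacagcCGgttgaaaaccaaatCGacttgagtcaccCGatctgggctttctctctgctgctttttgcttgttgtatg
Adamts17, coding exon, chr7:74294748-74294863, higher in muscle: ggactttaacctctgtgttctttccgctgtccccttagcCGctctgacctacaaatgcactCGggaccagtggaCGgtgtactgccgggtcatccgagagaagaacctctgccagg
Epha2, intron, chr4:140868434-140868553, higher in muscle: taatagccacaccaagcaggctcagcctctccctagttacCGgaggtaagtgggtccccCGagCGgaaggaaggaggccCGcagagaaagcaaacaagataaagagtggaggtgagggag
Rapgef4, intron, chr2:72012253-72012361, higher in muscle: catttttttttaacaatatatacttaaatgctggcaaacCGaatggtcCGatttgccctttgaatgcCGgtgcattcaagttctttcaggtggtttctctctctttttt
Of these windows, the one at Usp46 contained the E-box CAGCTG, a sequence that myogenic factors bind, between its first and second measured CpG. The window at Rapgef4, a locus higher in muscle, held another E-box, CACCTG on the minus strand. On the minus strand the window at Epha2 contained the FOXA letters TGTTTGC and the window at Megf6, a locus higher in liver, held TGTTTAC.

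The second set of stretches came from genes of the hepatocyte and muscle lists described below, and the CpGs in capitals passed the test there. They are a choice among members with called CpGs and do not stand for their lists. Other hepatocyte members, such as Tbx3, Nr5a2, Trfr2 and Foxa2, had calls higher in liver. The muscle members Speg and Pax7 had a call higher in muscle.
Trf, transferrin, intron, chr9:103130165-103130251, higher in muscle: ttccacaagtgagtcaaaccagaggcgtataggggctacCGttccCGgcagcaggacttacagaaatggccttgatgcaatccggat
F7, coagulation factor VII, intron, chr8:13026111-13026191, higher in muscle: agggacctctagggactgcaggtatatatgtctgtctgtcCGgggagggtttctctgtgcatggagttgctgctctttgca
Foxa3, intron, chr7:19608363-19608443, higher in muscle: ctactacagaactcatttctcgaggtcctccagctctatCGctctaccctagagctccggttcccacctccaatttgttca
Ldb3, intron, chr14:35378928-35379095, higher in liver: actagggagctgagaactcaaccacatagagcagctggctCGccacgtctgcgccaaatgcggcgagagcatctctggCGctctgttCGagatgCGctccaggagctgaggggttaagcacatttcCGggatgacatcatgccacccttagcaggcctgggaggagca
Fbxo40, intron, chr16:36990082-36990167, higher in liver: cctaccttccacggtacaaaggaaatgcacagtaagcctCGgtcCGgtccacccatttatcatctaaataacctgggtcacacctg
The window at Ldb3 also contained CAGCTG, just before its first measured CpG.

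Liver was more methylated than muscle at P20 over the CpGs compared. The mean per library was 58.7%, 54.1%, 57.0%, 55.1% and 57.1% in liver replicates 1 to 5, and 48.4%, 37.6%, 47.9% and 48.2% in muscle replicates 1, 2, 3 and 5. Every liver library lay above every muscle library. The means of 56.4% ± 1.81 (SD, n = 5) and 45.5% ± 5.29 (SD, n = 4) differed by 10.9 percentage points (exact permutation test over libraries, two-sided, p = 0.00794, the smallest p that groups of 5 and 4 can give). Muscle replicate 2 stood apart with the lowest mean, and it lacked a value at 45.0% of the CpGs. Liver replicate 1 lacked a value at 60.3%, liver replicate 4 at 28.3%, and the other libraries at 0% to 7.81%. At the 4532 CpGs with a value in all 9 libraries the difference was 7.02 points, from 51.2% ± 1.12 (SD, n = 5) in liver to 44.2% ± 1.45 (SD, n = 4) in muscle, with the same exact permutation p of 0.00794. The number of reads behind each value is unknown, because the tables give fractions only.

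The gap lay at both ends of the scale. CpGs under 20% methylated made up 20.3% ± 1.66 (SD, n = 5) of a liver library and 31.7% ± 6.05 (SD, n = 4) of a muscle library, whereas CpGs at 80% or more made up 33.9% ± 2.75 (SD, n = 5) and 23.9% ± 4.60 (SD, n = 4). Both shares separated the tissues completely (exact permutation test, two-sided, p = 0.00794 each). At the CpGs with all 9 values the gaps were smaller, with 25% and 33.7% of CpGs under 20% in liver and muscle and 28.2% and 22.7% at 80% or more (exact permutation p = 0.00794 each). At the CpGs with all 9 values, 2 libraries of different tissues differed on average by 13.7 to 18.9 points per CpG over the 20 pairs, 2 liver libraries by 9.58 to 14.7 points and 2 muscle libraries by 10.6 to 13.8 points.

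Each CpG was tested with limma on its methylation fractions. Calls needed a difference of more than 5 percentage points and a p of 0.1 or less after Benjamini-Hochberg adjustment. Of the 28021 CpGs, 4399 (15.7%) were called, 3951 (14.1%) higher in liver and 448 (1.60%) higher in muscle. Liver libraries did not overlap muscle libraries at 3440 of the 3951 CpGs and at 380 of the 448, against 15.9% and 2.68% of all CpGs compared. Differences were large: 3100 of the calls higher in liver (11.1% of all CpGs) and 286 of those higher in muscle (1.02%) exceeded 30 points. The median difference was 38.8 points for CpGs higher in liver and -33.6 points for those higher in muscle, beside 5.44 points for all CpGs compared. The calling rule sets part of this size and separation. The median moderated SE was 8.41 points, so small differences seldom reached the adjusted p. The share of calls higher in liver, 89.8%, depends on the overall gap between the tissues. With every library shifted to the same mean over the CpGs with all 9 values, 3237 CpGs were called, 2397 higher in liver (74.1%) and 840 higher in muscle. The gap was 7.02 points at those CpGs and 10.9 points over all CpGs compared, so part of it remained. This is called the shift to equal means below. No CpG called with and without the shift changed direction. On the logit scale 2145 CpGs were called, 1920 higher in liver and 225 higher in muscle, and among the CpGs with all 9 values 703 of 4532 (15.5%) were called, 608 and 95. With the replicate number added to the model as a block, 1776 were called, 1634 higher in liver and 142 higher in muscle.

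Most called CpGs were partly methylated in at least one tissue rather than switched from unmethylated to methylated. Among the 3951 CpGs higher in liver, 1546 (39.1%) averaged 20% to 80% in liver and under 20% in muscle, 1299 (32.9%) lay between 20% and 80% in both, and 1038 (26.3%) were at 80% or more in liver and between 20% and 80% in muscle. At 60 CpGs (1.52%) liver was at 80% or more while muscle was under 20%. The 448 CpGs higher in muscle divided in a like way, with 154 under 20% in liver and partly methylated in muscle, 147 partly methylated in both, 139 partly methylated in liver and at 80% or more in muscle, and 5 under 20% in liver and at 80% or more in muscle. The median called CpG was 69.0% methylated in liver and 24.3% in muscle when higher in liver, and 27.7% in liver and 68.7% in muscle when higher in muscle. CpGs under 10% methylated in every library of a tissue had been removed from that tissue's table by the authors, so sites unmethylated throughout one tissue are not among those compared.

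**Figure D1:**
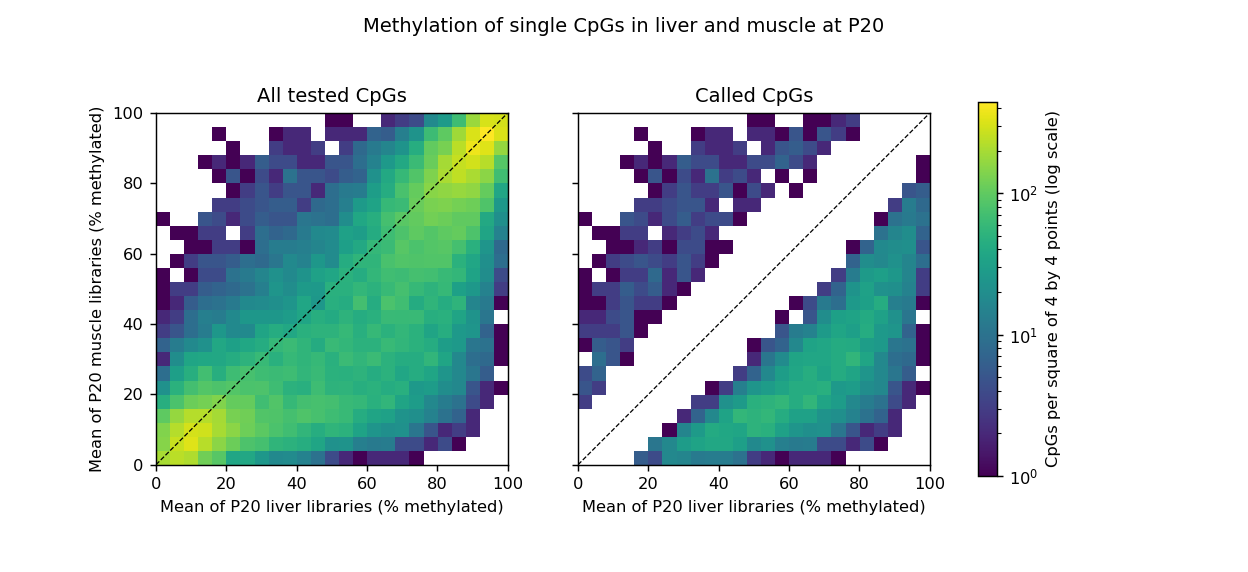
Mean methylation of each CpG in the 5 P20 liver libraries (horizontal axis, %) against the 4 P20 muscle libraries (vertical axis, %), as the number of CpGs per square of 4 by 4 points on a log color scale, for the 28021 CpGs compared (left) and the 4399 called (right). The dashed line marks equal levels, and most called CpGs lie below it, where liver is higher.

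Some called CpGs lay in runs and most did not. Runs of at least 3 called CpGs of one direction, with no gap over 500 bp, numbered 316, of which 290 were higher in liver and 26 higher in muscle, and they held 1148 of the 4399 calls. The largest run had 14 called CpGs. A CpG has a cytosine on each strand, which RRBS reads from different DNA molecules, and both were measured at 247 CpGs. At 12 of these both cytosines were called higher in liver. Cytosines called higher in liver had 34 measured partners, and 34 had the same direction, with a median difference of 36.8 points. Only 1 cytosine called higher in muscle had a measured partner, which did not share its direction (1.53 points, liver minus muscle).

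The 10 runs with the largest mean difference in each direction were taken as named loci, from autosomal runs at protein-coding genes in which every called CpG had a value in at least 8 libraries. All 10 loci higher in liver were intronic except one, which lay 1368 bp upstream of 2610028H24Rik and also near Pcnt, the gene of the centrosome protein pericentrin. A library was counted at a locus only where it had a value at every CpG of the run.

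The largest difference was at Megf6, a gene for a protein with EGF-like repeats, whose sequence is printed above. Its 3 CpGs at chr4:153621992-153622006, in an intron 77153 bp from the start site, averaged 100%, 97.0%, 82.6% and 74.1% in liver replicates 1, 2, 3 and 5, and 15.3%, 20.0%, 0% and 28.6% in muscle replicates 1, 2, 3 and 5. The groups did not overlap, and the difference was 72.5 points with limma adjusted p of 0.00163 to 0.00683 over the CpGs. Usp46, the gene of a deubiquitinating enzyme, followed with 3 intronic CpGs at 86.5%, 80%, 60.6% and 54.5% in liver replicates 1, 2, 3 and 5, and at 21.1%, 2.22%, 3.33% and 14.1% in the muscle libraries. Here too every liver library exceeded every muscle library, by 60.2 points on average.

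Akap6 encodes an anchor of protein kinase A at the nuclear envelope of muscle cells. Its intronic run was at 79.9%, 80.4%, 68.3% and 79.2% in liver replicates 2 to 5 and at 33.9%, 16.9%, 6.14% and 27.0% in muscle, a difference of 55.9 points with limma adjusted p of 0.00277 to 0.00380. Rbm20, a splicing regulator of titin in striated muscle, had 5 called CpGs at 86.0%, 76.6%, 43.3% and 78.7% in liver replicates 1, 3, 4 and 5 and at 21.4%, 8.68%, 17.7% and 27.1% in muscle. Liver replicate 4 was the lowest liver library at both genes, and neither locus overlapped between the tissues. At Rbm20 the call was lost when liver replicate 1 and muscle replicate 2 were both left out.

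The remaining loci higher in liver had smaller mean differences than Megf6, Usp46 and Akap6. They were Igf1r, the receptor of insulin-like growth factor 1, Ccnd3, the gene of cyclin D3, Arid1b, a subunit of the BAF chromatin remodeling complex, Bicc1, which encodes an RNA-binding protein, Pdzd2, which encodes a protein with PDZ domains, and the site near Pcnt. Library means there ranged from 43.2% to 94.1% in liver and from 0% to 37.9% in muscle, and the mean differences ranged from 50.0 points at Arid1b to 55.3 points at Pdzd2. At none of the 10 loci did the groups overlap.

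Methylation was higher in muscle at coding exons of Adamts17, Dchs1 and Prdm10 and at introns of 6 further genes, and 1196 bp upstream of Zfp503. Adamts17, the gene of a secreted metalloprotease, had the largest difference of the 10: its 3 CpGs at chr7:74294788-74294823 averaged 25.9%, 32.1%, 44.5%, 4.44% and 39.2% in liver replicates 1 to 5 and 75.6%, 89.7% and 78.8% in muscle replicates 1 to 3. The groups were separate by more than 30 points, and the means differed by -52.1 points (liver minus muscle). Epha2 encodes an ephrin receptor of epithelial cells. Its 4 intronic CpGs were at 16.4%, 8.23%, 2.92%, 13.2% and 9.52% in liver and at 67.4%, 62.8% and 52.3% in muscle replicates 1, 3 and 5, with limma adjusted p of 0.00249 to 0.00803.

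Rapgef4, the gene of a guanine nucleotide exchange factor activated by cyclic AMP, was at 40%, 30.8%, 21.5% and 40.2% in liver replicates 1, 2, 3 and 5 and at 80%, 85.5%, 76.7% and 80.9% in muscle. All muscle libraries were above 75%, and all liver libraries were near or under 40%. Cidec, which encodes a protein of lipid droplets, was at 59.1%, 56.7%, 31%, 33.3% and 48.6% in liver and at 92.2%, 87.6%, 96.4% and 79.6% in muscle, so a partly methylated state in liver stood against a largely methylated one in muscle. The other 6 loci were at Dchs1, a large cadherin, Tmem57, Shroom3, an organizer of apical actin, Rtn1, a reticulon, Prdm10, a zinc finger protein, and Zfp503, with mean differences from -25.9 to -47.4 points. Shroom3 was the only one of the 10 at which the groups overlapped: liver ranged from 7.36% to 55.7% and muscle from 54.5% to 77.8%. The Shroom3 call was lost in 4 of the 9 fits that leave out 1 library each, namely those without liver replicate 2 or 3 or muscle replicate 3 or 5. It was also lost when liver replicate 1 and muscle replicate 2 were both left out. The call of Prdm10 was lost without muscle replicate 3.

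**Figure D2:**
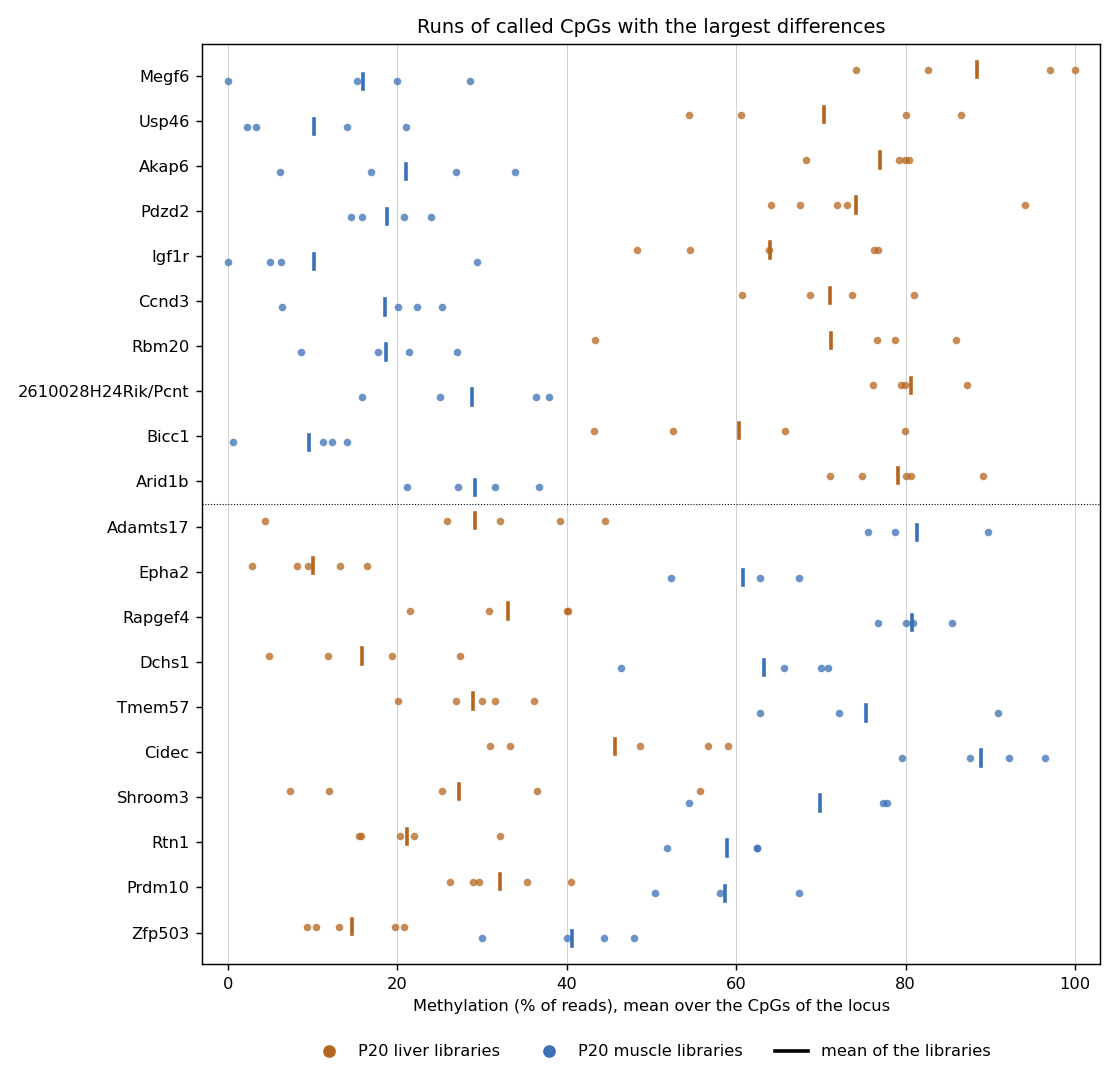
Methylation (%, horizontal axis) at the 10 loci most higher in liver (above the dotted line) and the 10 most higher in muscle (below it), with a point for each P20 liver (brown) and P20 muscle (blue) library that had a value at every CpG of the locus and a bar at each tissue's mean. The 2 groups of points are separate at every locus except Shroom3.

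Genes of hepatocyte products were called mainly as higher in muscle, the rarer direction over all CpGs. Of 147 genes for secreted proteins and metabolic enzymes of hepatocytes, 146 were matched to the annotation and 27 had a CpG among those compared, counting CpGs from 5 kb upstream of the outermost start site to the end of the gene. Of their 62 CpGs, 7 (11.3%) were higher in muscle and 2 (3.23%) higher in liver, beside 1.60% and 14.1% of all CpGs compared, and the median difference was 0.399 points, beside 5.44. After the shift to equal means 9 were called and all were higher in muscle. Without liver replicate 1 and muscle replicate 2, 6 were higher in muscle and 1 higher in liver.

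For each gene with several called CpGs, the one with the largest difference is described. Trf encodes transferrin, the iron carrier of plasma. Its intronic CpG at chr9:103130205 was at 16.7%, 34.4%, 20.0% and 22.2% in liver replicates 2 to 5 and at 86.7%, 81.8% and 75.0% in muscle replicates 1, 3 and 5, a difference of -57.8 points ± 6.54 (moderated SE, limma adjusted p = 0.00290). The neighboring CpG at chr9:103130211 had means of 18.3% and 73.3%. Asl, the gene of argininosuccinate lyase in the urea cycle, was at 25% to 56.8% in the 5 liver libraries and at 77.8% to 91.7% in 3 muscle libraries, with a limma adjusted p of 0.00710.

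Fbp1, the liver form of fructose-1,6-bisphosphatase in gluconeogenesis, had 1 CpG in the promoter of one of its transcripts at 46.7%, 31.6% and 18.2% in liver replicates 2, 3 and 5 and at 63.2%, 84.6% and 76.9% in muscle replicates 1, 3 and 5. The coagulation factor genes F7 and F2 each had 1 called intronic CpG. At F7, 117 bp into the gene, liver replicates 2, 3 and 5 were at 17.6%, 11.4% and 11.1% and muscle replicates 1, 3 and 5 at 42.9%, 37.5% and 53.8%. At F2, which encodes prothrombin, liver was at 13.5% to 31.8% and muscle at 38.5% to 70.0%. The groups were separate at all of these sites. The exception in direction was Trfr2, the older symbol of the transferrin receptor 2 gene, with both of its CpGs higher in liver, 54.5% ± 20.4 (SD, n = 4) against 19.8% ± 12.2 (SD, n = 4) at the more different one.

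Genes of hepatocyte transcription factors were called in both directions. All 23 were matched and 13 had CpGs among those compared, with 9 of 47 CpGs (19.1%) higher in liver and 3 (6.38%) higher in muscle, beside 14.1% and 1.60% of all CpGs compared, and a median difference of 11 points. After the shift to equal means 4 were higher in liver and 3 higher in muscle, with a median of 3.94 points. The 9 were at Tbx3 with 5, Nr5a2 with 2, Esrra with 1 and Foxa2 with 1, and the 3 were at Foxa3, Nr1i2 and Esrra. Foxa3, a pioneer factor of endoderm, was at 0%, 12.5%, 9.38%, 0% and 16.3% in the liver libraries and at 31.4%, 39.1%, 54.8% and 68.4% in the muscle libraries, 484 bp from its start site (-40.8 points ± 7.78, moderated SE, limma adjusted p = 0.00983). Foxa2, its paralog, had 1 called CpG in a coding exon, which was at 23.5%, 41.2%, 47.8%, 33.3% and 40% in liver and at 8.82%, 18.2%, 2.78% and 14.3% in muscle. The 2 paralogs thus differed in opposite directions, without overlap between the tissues at either CpG.

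Nr1i2 encodes the pregnane X receptor, a sensor of xenobiotics. Its CpG was at 0% to 15.4% in the 5 liver libraries and at 26.4% to 32.0% in 3 muscle libraries. Tbx3, a factor of liver and limb development, reached 66.6% ± 15.2 (SD, n = 4) in liver against 19.6% ± 10.5 (SD, n = 3) in muscle at its most different CpG. Nr5a2, a nuclear receptor controlling bile acid synthesis, was at 53.3% to 73.0% in liver and 21.4% to 50.0% in muscle.

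Genes of the muscle fiber were called mainly as higher in liver, as were CpGs in general. The list of contractile and metabolic genes of skeletal muscle had 154 members, all matched, of which 63 had CpGs among those compared. Of their 222 CpGs, 40 (18%) were higher in liver and 1 (0.450%) higher in muscle, beside 14.1% and 1.60% of all CpGs compared, with a median difference of 9.07 points, beside 5.44. Calls lay at 24 of the 63 genes, at 23 of them as higher in liver. The single call in the other direction was at Speg, a kinase of the sarcoplasmic reticulum membrane system, with 46.4% in liver and 68.1% in muscle. After the shift to equal means 25 CpGs of the list were higher in liver and 5 higher in muscle, and without liver replicate 1 and muscle replicate 2 the counts were 35 and 0.

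Cpt1b, the muscle form of carnitine palmitoyltransferase 1 that admits fatty acids to mitochondria, had the most, with 6 of 8 cytosines called in a stretch of 5′ untranslated exon 236 to 307 bp from the start site. The window also overlaps the neighboring gene Chkb. The most different one, at chr15:89255987, was at 66.7%, 70.0% and 78.3% in liver replicates 3, 4 and 5 and at 21.9%, 0% and 4.76% in muscle replicates 1 to 3 (62.8 points ± 7.96, moderated SE, limma adjusted p = 0.00498). The other 5 averaged 50.2% to 66.0% in liver and 7.48% to 11.6% in muscle.

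Ldb3 encodes a protein of the Z-disc, and its 5 called CpGs lay within 88 bp of an intron. At chr14:35379016 liver replicates 2 to 5 were at 81.2%, 89.1%, 40% and 88.0% and the muscle libraries at 31.3%, 4.76%, 27.8% and 22.6%. The groups overlapped at 3 of the 5 CpGs and not at this one. Ckm, the gene of muscle creatine kinase, was at 91.7%, 90.9%, 80% and 82.4% in liver replicates 1, 2, 3 and 5 and at 18.8%, 3.70% and 40% in muscle replicates 1, 3 and 5, 257 bp upstream of its start site (65.4 points ± 8.88, moderated SE, limma adjusted p = 0.00463). Both were highly methylated in liver except in replicate 4 at Ldb3. Pdlim7, a Z-disc and cytoskeletal adaptor, had the widest gap of the list at one CpG, with 78.4%, 100% and 52.9% in liver replicates 3, 4 and 5 against 7.69%, 0% and 5.00% in muscle replicates 1, 3 and 5.

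Fbxo40, which encodes a muscle-restricted component of a ubiquitin ligase, was at 72.2%, 60.0% and 91.3% in liver replicates 2, 3 and 5 and at 14.5%, 8.33%, 9.09% and 40% in muscle, 426 bp from its start site. Tpm3, which encodes the tropomyosin of slow fibers, was at 88.0% to 89.6% in the 3 liver libraries with a value and at 25% to 60.0% in muscle. The groups were separate at both of these CpGs. At the other called CpG of Fbxo40, chr16:36990122, they overlapped, with liver at 51.3% to 87.5% and muscle at 7.69% to 55.0%. Casq2, Mybph, Musk, Lmod3, Rbm24 and Ttn, with 1 called CpG each, were among the other members higher in liver, with means of 62.6% to 94.4% in liver and 8.67% to 38.4% in muscle.

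Myogenic and muscle transcription factors had 20 of 34 members with CpGs among those compared, and 11 of their 85 CpGs (12.9%) were higher in liver and 1 (1.18%) in muscle, near the 14.1% and 1.60% of all CpGs compared, with a median difference of 4.33 points, slightly under that of all CpGs. After the shift to equal means 4 were higher in liver and 3 higher in muscle, with a median of -1.91 points. Tead1, a factor at muscle gene promoters, had 4 of its 5 CpGs called, the most different at 63.0%, 76.5% and 71.4% in liver replicates 3, 4 and 5 and at 17.8%, 28.6%, 0% and 8.33% in muscle (56.6 points ± 7.97, moderated SE, limma adjusted p = 0.00522). Myog, the gene of myogenin, had a single CpG in an exon, at 30% to 56.7% in liver replicates 2 to 5 and at 0% to 31.6% in the 4 muscle libraries (30.2 points ± 8.54, moderated SE, limma adjusted p = 0.0538). These ranges overlapped, since muscle replicate 2 exceeded liver replicate 2. Nfix, Sox6, Tead4, Mef2d and Eya4 also had calls higher in liver, and the one call higher in muscle was at Pax7, a factor of satellite cells, with means of 15.4% in liver and 34.5% in muscle.

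**Figure D3:**
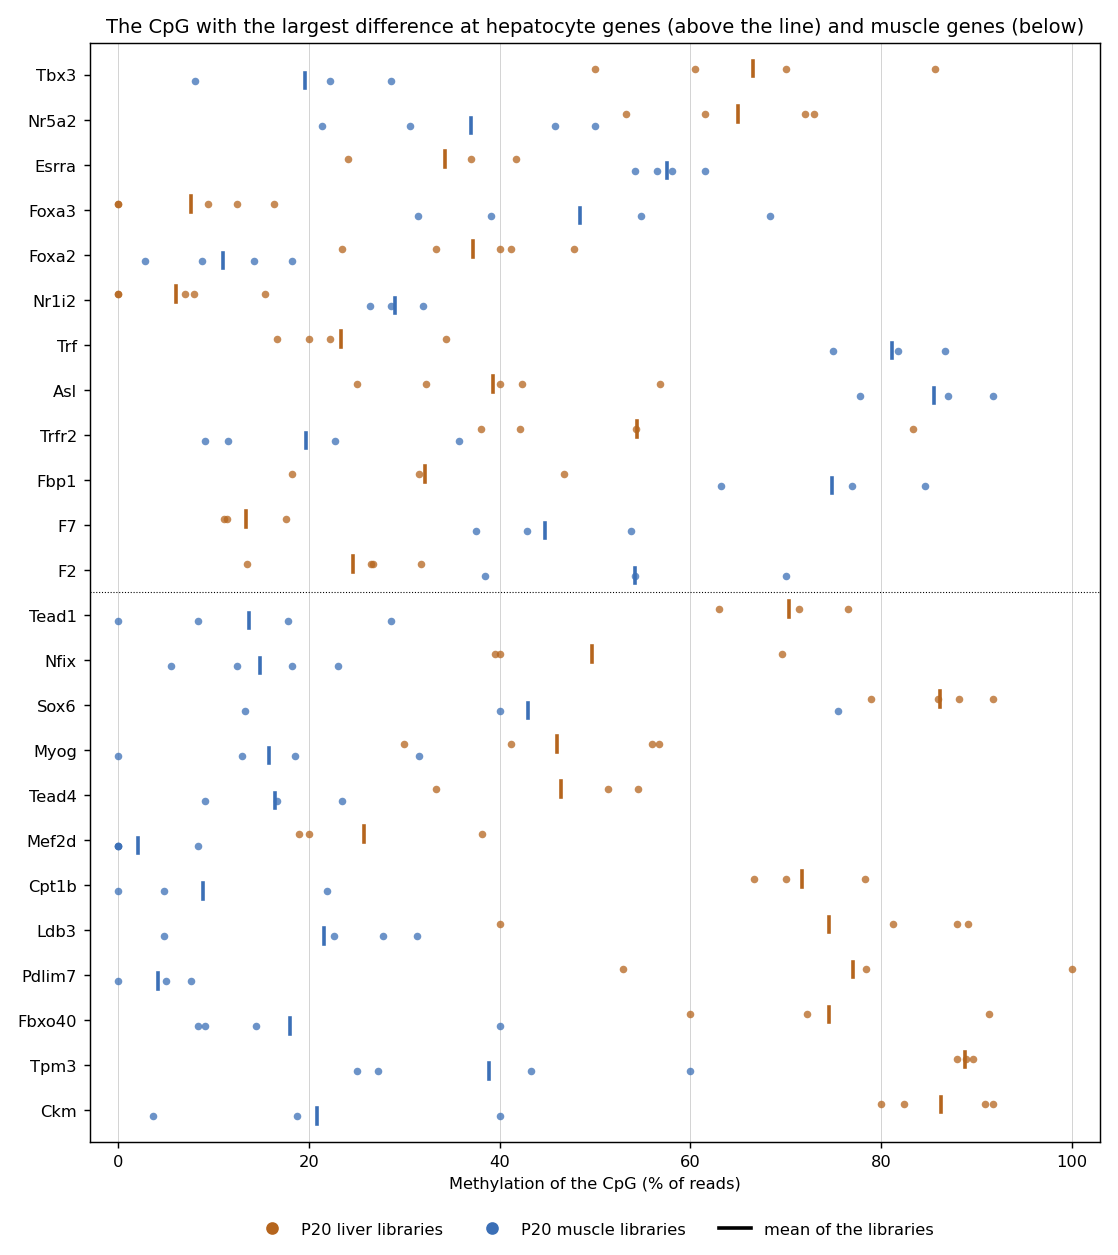
Methylation (%, horizontal axis) of the CpG with the largest difference at each named hepatocyte gene (above the dotted line) and muscle gene (below it), with a point for each P20 liver (brown) and P20 muscle (blue) library and a bar at each tissue's mean. Esrra, Foxa3, Nr1i2, Trf, Asl, Fbp1, F7 and F2 were higher in muscle, and all muscle genes shown were higher in liver.

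Few members of the paired isoform genes were measured. Of 20 liver isoforms whose partner is the muscle isoform, 5 had CpGs among those compared, and Fbp1 gave the only call among their 10 CpGs (median difference -10.9 points). Of the 20 muscle isoforms 6 had CpGs, and Cpt1b gave all 6 calls among 19 (median 13.2 points). No pair had called CpGs at both members. Over all CpGs compared, 15.7% were called, 14.1% higher in liver and 1.60% higher in muscle.

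Tissues also differ in their blood, vessel, connective tissue, fat and nerve cells, and genes of these cells were read in the same way, beside the 14.1% of all CpGs called higher in liver and the 1.60% higher in muscle. Of 54 blood cell genes 13 had CpGs among those compared, and 9 of their 72 CpGs (12.5%, near the share of all CpGs) were higher in liver and 0 higher in muscle, at Elane, Ank1, Cd4 and Zap70 (median difference of all 72, 0.337 points). Elane, the gene of neutrophil elastase, had 4 of them, the most different at 89.7% in liver and 38.9% in muscle, which lay over 3 kb upstream and also in the window of its neighbor Prtn3. With windows from 1 kb upstream these 4 left the list and 5 of 63 were higher in liver, and after the shift to equal means 6 were higher in liver and 3 higher in muscle (median -6.07 points). Connective tissue and fibroblast genes had 12 of 75 CpGs (16%, near the share of all CpGs) higher in liver and 1 higher in muscle (median 4.31 points). Tcf4, a transcription factor gene that is not the fibroblast marker Tcf7l2, whose protein is also called TCF4, had 5 of the 12. Without Tcf4, 7 of 65 (10.8%) were higher in liver. Tnxb and Fbn1, which encode extracellular matrix proteins, had 3 and 2. After the shift to equal means 6 were higher in liver and 2 higher in muscle (median -2.42 points). Endothelial genes had 2 of 41 higher in liver, at Erg and Pecam1, and 0 higher in muscle (median 7.70 points).

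Adipocyte genes had 3 of 5 CpGs higher in muscle, all at Cidec (median -38.1 points), and nerve and Schwann cell genes had 4 of 29 (13.8%) higher in muscle, beside 1.60% of all CpGs, all at Mag, the gene of a myelin glycoprotein, and 1 higher in liver, at Mbp (median 4.63 points). At the most different CpG of Mag the liver libraries were at 31.2% to 46.7% and the muscle libraries at 74.1% to 92.3%, without overlap. The part of these cells in the other differences was not tested. None of the 6 defining blood markers, which include Ptprc and Gata1, had a CpG among those compared, while 9 of 24 defining liver markers and 6 of 16 of skeletal muscle did, with 4 of 26 and 3 of 22 CpGs called. These are 15.4% and 13.6%, near the 15.7% called over all CpGs, and a direction is not read from so few. Methylation near a gene is not its expression, so these values do not test the labelled tissue directly.

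Position relative to genes and CpG density divided the calls. Introns had the highest share of called CpGs, 1822 of 9357 (19.5%), followed by intergenic sequence with 1739 of 11328 (15.4%), exons with 619 of 5162 (12%) and promoters, defined as 1 kb upstream of a start site, with 219 of 2174 (10.1%). CpGs higher in liver followed this order, from 17.7% of introns to 8.56% of promoters. CpGs higher in muscle made up 1.47% to 1.80% of each class, and 1.36% of exons to 2.03% of promoters with promoters of 2 kb, and these shares were not tested. The number of called CpGs higher in liver per call higher in muscle was 9.85 in introns and 5.64 in promoters.

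With more CpGs within 200 bp on each side, fewer were called. The share was 19.7% at 6 to 10 CpGs, 17.3% at 11 to 15, 11.2% at 16 to 20, 6.87% at 21 to 30 and 4.46% at over 30, and was 15.6% at 0 to 5. The densest class was mostly unmethylated in both tissues, with median levels of 16.7% in liver and 15% in muscle. Within introns alone the share also fell, from 22.0% at 6 to 10 CpGs to 1.89% at over 30.

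**Figure D4:**
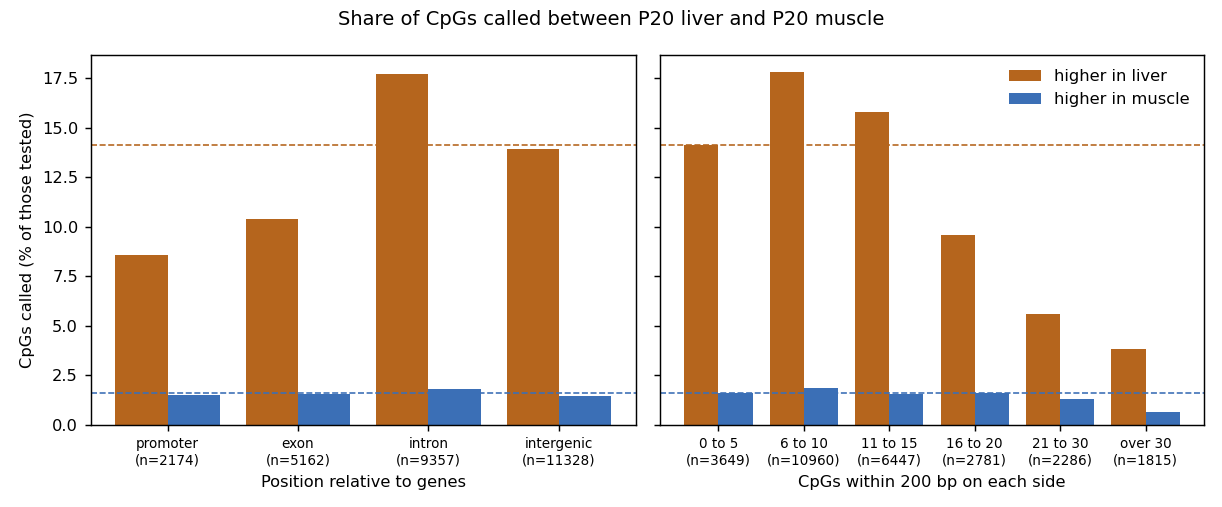
Share of CpGs called (% of those compared, vertical axis) by position relative to genes (left) and by the number of CpGs within 200 bp on each side (right), for CpGs higher in liver (brown) and higher in muscle (blue). The dashed lines mark the shares over all CpGs, 14.1% and 1.60%. Introns and windows of 6 to 10 CpGs held the highest share of calls higher in liver.

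Letters bound by lineage factors were counted in windows of 100 bp on each side of called CpGs, on both strands, with at most 1 CpG per kb. The E-box CAGCTG was in 564 of 2640 windows around CpGs higher in liver (21.4%), in 38 of 328 around CpGs higher in muscle (11.6%) and in 1929 of 13739 around all CpGs compared (14.0%). With the E-boxes CACCTG and CATCTG included, the shares were 48.6%, 38.1% and 42.2%. MEF2 letters (CTAAAAATA, CTATTTTTA or CTATAAATA) were in 25 (0.947%), 0 and 74 (0.539%) of these windows. TEAD letters (GGAATG) were in 14.2%, 10.1% and 11.8%.

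FOXA and GATA letters had their highest share around CpGs higher in muscle. FOXA letters (TGTTTAC or TGTTTGC) were in 47 of 328 windows around CpGs higher in muscle (14.3%), in 140 of 2640 around CpGs higher in liver and in 6.51% of all. GATA letters (AGATAA) were in 13.4%, 6.82% and 7.82%. C/EBP letters (TTGCGCAA, TTGCGTAA or TTGCATAA) and HNF1 letters (GTTAATNAT) were in 5 (1.52%) and 4 (1.22%) of the 328 windows, beside 0.509% and 0.429% of all. HNF4 letters (CAAAGTCCA) were in 1 of the 328 and in 30 of all. ETS letters (CCGGAAGT or AGGAAG) were in 27.7% of windows higher in liver, 20.7% of those higher in muscle and 25.9% of all, and RUNX letters (TGTGGT) in 12.2%, 13.4% and 12.6%. Mean GC content of the windows was 51.5%, 51.0% and 51.6%. These shares are descriptions without a test, and a match does not show that a factor binds.

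The same tissues at the 5 earlier ages, whose values did not enter the test at P20 although they took part in the authors' filter of each tissue's table, were read at the CpGs called at P20. Liver and muscle were already apart at E18, the label of the embryonic age that the study's methods give as E18.5, in both directions, and the gap was smaller there. At the 3951 CpGs higher in liver at P20, the median per library was 54.0% ± 4.43 (SD, n = 4) in liver and 28.6% ± 4.09 (SD, n = 4) in muscle at E18, and the gap was 25.5, 32.0, 30.4, 34.8 and 41.5 points at E18, P1, P5, P10 and P15. At the 448 CpGs higher in muscle, liver was at 48.0% ± 2.05 and muscle at 64.3% ± 3.08 (SD, n = 4 each) at E18, and the gap was -16.3, -14.3, -19.7, -23.9 and -26.9 points at the 5 ages. In all 10 comparisons the 3 to 5 libraries of one tissue lay apart from those of the other, and each exact permutation p, 0.00794 at P1 and 0.0286 elsewhere, was the smallest its arrangements can give (Benjamini-Hochberg adjusted over the 10 comparisons, 0.0286 each).

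Liver differed more between ages than muscle did. Liver medians at the CpGs higher in liver were 54.0%, 57.5%, 59.4%, 63.9%, 65.4% and 69.8% from E18 to P20, while muscle stayed between 22.9% and 29.1%. At the CpGs higher in muscle, liver medians were 48.0%, 50.0%, 43.4%, 42.2%, 35.9% and 25.8%, while muscle stayed between 62.8% and 67.6%. The change between ages was not tested. By the study's histology, blood-forming cells were a large share of the liver around birth and few from P10 on. Liver libraries of different ages thus differ in cell makeup, and its part in these medians was not tested. P20 values chose these CpGs, so part of the step from P15 to P20 is fixed by the choice. The direction of P20 was already present at E18 at 3113 of 3951 CpGs (78.8%) higher in liver and at 351 of 448 (78.3%) higher in muscle, where 46.1% and 53.8% of all CpGs had these directions.

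Single loci followed different courses. Usp46 was already apart at E18, with 77.7% ± 12.7 (SD, n = 4) in liver and 9.14% ± 7.81 (SD, n = 3) in muscle, and Arid1b with 84.6% ± 2.90 (SD, n = 3) and 12.8% ± 10.2 (SD, n = 4). Ccnd3 was low in both tissues at E18, with 13.6% ± 6.39 in liver and 18.2% ± 4.13 in muscle (SD, n = 3 each), and in liver was at 67.3% ± 2.34 (SD, n = 3) at P15. Trf was methylated in both tissues at E18, with 59.3% ± 14.5 in liver and 76.5% ± 8.87 in muscle (SD, n = 4 each), and in liver was at 37.5% ± 22.0 (SD, n = 3) at P15 and 23.3% ± 7.72 (SD, n = 4) at P20. Foxa3 was at 44.9% ± 23.8 in liver and 24.7% ± 16.9 in muscle at E18 (SD, n = 4 each), with the higher mean in liver, and in liver was at 7.64% ± 7.40 (SD, n = 5) at P20, where muscle was higher. The most different CpGs of Cpt1b and Tbx3, called as higher in liver at P20, had close means in both tissues at P15. Cpt1b at chr15:89255987 was at 27.0% ± 11.7 (SD, n = 2) in liver and 25.7% ± 13.8 (SD, n = 4) in muscle. The CpG of Tbx3 had means of 21.4% and 19.1%. At E18 this Cpt1b CpG was at 50.6% ± 22.5 in liver and 26.9% ± 10.9 in muscle (SD, n = 3 each). Other called CpGs of these genes varied at P15. Liver and muscle means were 46.8% and 13.6% at chr15:89256017 of Cpt1b and 20.8% and 24.3% at chr15:89255990. They were 36.7% and 17.7% at chr5:120130780 of Tbx3. Differences between ages at these loci are values only and were not tested.

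**Figure D5:**
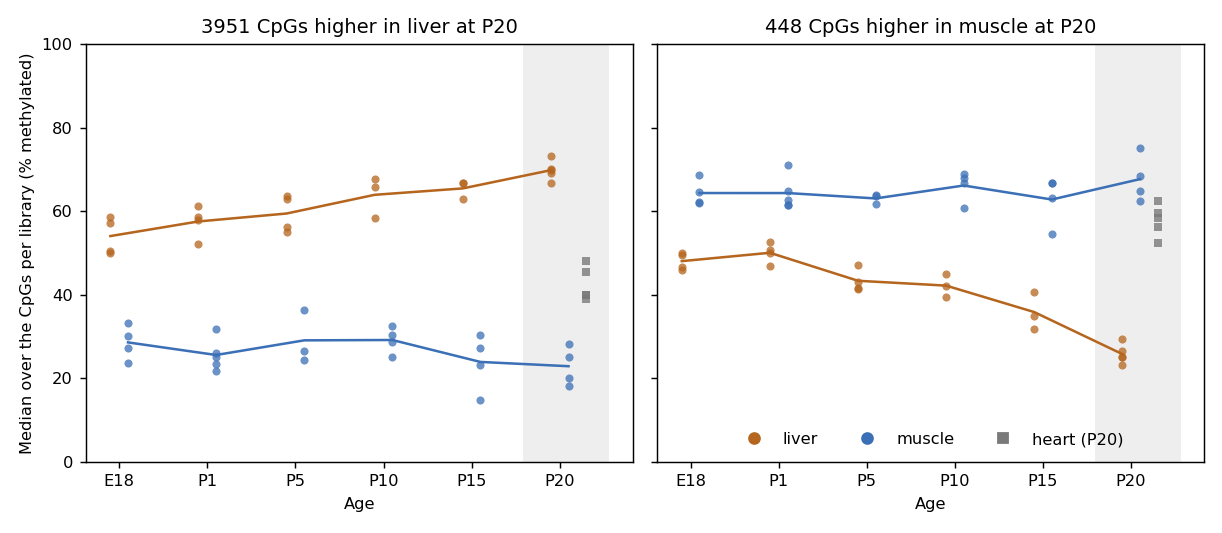
Median methylation per library (%, vertical axis) at the CpGs called higher in liver (left) and higher in muscle (right) at P20, for liver (brown) and muscle (blue) at 6 ages from E18 to P20, with a line through the tissue means and the 5 P20 heart libraries, over the CpGs they share, as grey squares. The P20 libraries, in the shaded band, chose the CpGs. Liver and muscle are apart at every age, and the heart libraries lie between the means of both.

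Heart, a striated muscle of another lineage, was measured at P20 in 5 libraries and had at least 3 values at 3264 of the 4399 called CpGs. The median per heart library was 42.5% ± 3.99 (SD, n = 5) at CpGs higher in liver, where liver was at 69.0% ± 2.26 and muscle at 22.9% ± 4.73, and 57.8% ± 3.82 at CpGs higher in muscle, where liver was at 26.5% ± 2.32 and muscle at 68.7% ± 5.52. Heart lay nearer muscle than liver at 1897 of the 3264 (58.1%), which was 56.9% of the CpGs higher in liver and 67.7% of those higher in muscle. Over all CpGs compared heart was nearer muscle at 51.4%. These shares were not tested.

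At single loci heart sided with either tissue. Usp46 was at 11.6% ± 15.2 (SD, n = 4) in heart and Pdzd2 at 14.2% ± 0.397 (SD, n = 3), both close to muscle, and Rapgef4 was at 78.3% ± 15.2 (SD, n = 4). Trf was at 79.2% ± 26.0 (SD, n = 3) and Asl at 89.9% ± 11 (SD, n = 5), again near muscle. Tpm3 was at 89.0% ± 9.87 (SD, n = 4), at the level of liver, as was Erg, a factor of endothelial cells, at 94.8% ± 5.00 (SD, n = 4). Tbx5, a factor of heart development, was at 45.5% ± 5.73 (SD, n = 3) in heart, between means of 54.7% in liver and 15.9% in muscle, whose libraries overlapped there (38.5% to 81.0% and 5.00% to 41.7%).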

How the data were processed

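RRBS methylation was measured in 5 P20 liver and 4 P20 muscle libraries. The authors aligned reads to mm9 with Bismark 0.7.6 and Bowtie2, set CpGs under 10 reads to missing, removed CpGs missing in over 20% of a tissue's libraries or under 10% methylated in all of them, and deposited 1 methylation fraction per CpG and library with no other normalization. The 2 filters on missing and low values held in both tables. Fractions were multiplied by 100. Heart P20 and the earlier ages were read from the same kind of table, and mm10 tables served as an alternative. Of the columns deposited, 9 belonged to no listed sample and were not used.

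CpGs with at least 3 values per tissue were tested with limma 3.58.1 (R 4.3.3) on the fractions, without a block. Library values were compared by exact permutation tests. Genes came from GENCODE on mm9, whose sequence has a cytosine of a CpG at the listed positions. Each cytosine counted as 1 CpG, so a CpG measured on both strands counts as 2. Named loci and genes were the 10 runs per direction with the largest mean difference, among autosomal runs of at least 3 calls at protein-coding genes with at least 8 values at every called CpG, and up to 6 genes per hepatocyte or muscle list and 3 per other list with the most called CpGs; members outside this rule that the text names were chosen after their values were seen. The members and lists were chosen with earlier results of these data known. Symbols absent from the annotation were matched by older synonyms. Alternatives covered the scale, the test, the limits, missing values, autosomes, strands, build and the ages that share a fit. They also covered leaving out each library in turn and the replicate block. Leaving out both sparse libraries and leaving Tcf4 out of its list were added after the data were seen. So was shifting libraries to the same mean over the CpGs with all 9 values. Depth per CpG is unknown, so no counting intervals are given. Python 3.11.15 with numpy 2.4.6, pandas 2.3.3 and pysam 0.24.0 was used.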

Additional observations from a re-analysis of the deposited data

Results flagged for a closer look

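Prdm10 had opposite directions at different ages. Its 3 CpGs at chr9:31123775-31123815, in a coding exon, were higher in muscle at P20, by -26.5 points (liver minus muscle). They were higher in liver by 46.1 points at E18, where 3 liver libraries lay at 52.8% to 84.6% and 4 muscle libraries at 5.68% to 42.7%, by 49.3 points at P1, with 4 liver libraries at 72.3% to 87.5% and 5 muscle libraries at 17.1% to 35.0%, and by 31.6 points at P5, with 63.6% to 84.4% and 26.8% to 49.4%. The tissues did not overlap at these ages or at P20. At P10 liver averaged 47.3% ± 9.61 (SD, n = 3) and muscle 50.7% ± 6.36 (SD, n = 4), and at P15 liver 46.2% ± 24.6 and muscle 33.2% ± 3.66 (SD, n = 3 each). The P20 call was lost on the logit scale, under the replicate block and without muscle replicate 3. The difference between the ages was not tested. Heart at P20 was at 81.0% ± 8.62 (SD, n = 5).

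A library stood far from the others of its group in 6 of the 121 groups of 4 or 5 looked at, and chance gives about 1 in 20. Muscle replicate 2 had a mean of 37.6% over its CpGs, beside 47.9% to 48.4% in the other muscle libraries, and lacked 45.0% of the values, beside 0% to 5.97%. At the CpGs with all 9 values its mean was 42.1%, beside 44.5% to 45.4%. It also had 8.33% at Mef2d, where the other 3 were at 0%. Muscle replicate 3 was at 41.7% at Tbx5, beside 5.00% to 10.3%. Liver replicate 4 was at 68.3% at Akap6, beside 79.2% to 80.4%, and at 40% at Ldb3, beside 81.2% to 89.1%.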

How the results depend on the processing

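The logit scale and the replicate block moved the 4399 calls by over 1.5 times, to 2145 (1920 higher in liver) and 1776 (1634 higher in liver). With all 9 values required fewer CpGs were tested, and 703 of 4532 were called (15.5%, beside 15.7%). Same-numbered libraries did not deviate together (correlations of -0.0357 to 0.0214 over 4406 CpGs), and 1 of 4 liver libraries correlated best with its own number. These correlations cannot exclude a shared animal, because 2 tissues of one animal need not deviate together. At X-linked CpGs in dense windows, replicates 1, 2, 3 and 5 averaged 63.1%, 52.2%, 57.9% and 58.5% in liver and 64.0%, 46.6%, 56.8% and 51.7% in muscle. The labels tie no number to an animal, so the numbers were not taken as pairs, and whether they are is unknown. Leaving out 1 library gave 3009 to 4215 calls and a mean difference of 8.25 to 11.9 points. Without liver replicate 1 and muscle replicate 2, 3480 CpGs were called, 3104 higher in liver. No CpG called both here and in an alternative changed direction, over the alternatives on mm9 with strands kept apart. The median over the CpGs of all gene lists, 4.51 points, was -2.10 after the shift to equal means. Of the 20 named loci, 16 kept their call on the logit scale, without Shroom3, Rtn1, Prdm10 and Zfp503, and 16 under the replicate block, without Ccnd3, Tmem57, Rtn1 and Prdm10; the cause was not tested. Missing values limit liver replicates 1 and 4 and muscle replicate 2.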

Other observations

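Hox genes were called as higher in muscle where they were called. Of 39 genes, 24 had CpGs among those compared, and 5 of the 89 CpGs (5.62%) were higher in muscle and 0 higher in liver, beside 1.60% and 14.1% of all CpGs compared. The median difference was -2.98 points, beside 5.44 for all CpGs. Without liver replicate 1 and muscle replicate 2, 2 CpGs of the list were called, both higher in muscle, and after the shift to equal means 7 were higher in muscle. A CpG in a coding exon of Hoxa2, 1976 bp from its start site and also in the window of Hoxa3, was at 3.85%, 8.70%, 5.97%, 6.45% and 12.9% in liver and at 27.8%, 37.5%, 50.0% and 59.1% in muscle. Another at Hoxd3 was at 7.45% ± 6.25 (SD, n = 4) in liver and 36.9% ± 15.7 (SD, n = 3) in muscle. Hox windows overlap, so neighboring genes share these CpGs.

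Imprinted genes, which are expressed mainly from 1 parental copy, had 13 of 141 CpGs (9.22%, under the 14.1% of all CpGs) higher in liver and 0 higher in muscle, at 7 genes, with a median of 6.35 points that was -0.672 after the shift to equal means. Without liver replicate 1 and muscle replicate 2, 10 were higher in liver and 1 higher in muscle. Mcts2, a retrogene within H13, was at 63.6%, 51.2%, 41.7% and 71.4% in liver replicates 2 to 5 and at 23.2%, 16.7%, 3.33% and 15% in muscle, 77 bp upstream of its start site. Peg10 and Sgce share a promoter, where 3 CpGs averaged 47.0% in liver and 16.2% in muscle. Heart muscle genes had 5 of 40 CpGs (12.5%, near the 14.1% of all CpGs) higher in liver, at Gata4, Tbx5 and Gata6, and 2 higher in muscle, both at Hand1 (median 6.21 points). These counts were 1 and 2 after the shift to equal means, and 2 and 2 without liver replicate 1 and muscle replicate 2. The X chromosome had 183 CpGs compared, of which 6 (3.28%) were called, beside 15.8% on autosomes. The X-linked CpGs had a median of 20.0 CpGs within 200 bp on each side, beside 10.0 on autosomes, and denser windows had fewer calls. Library means over X-linked CpGs were 55.6% to 62.7% in liver and 49.2% to 63.0% in muscle.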
